A study of Mus musculus with 7 samples.

Results

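The mitochondrial genome transcripts are the 37 genes whose symbols begin with mt-, chosen by that prefix from the 46959 genes of the deposited table. They comprise 2 ribosomal RNAs, 13 protein-coding transcripts and 22 transfer RNAs, all on chromosome M of the mouse build GRCm38. Of these, 28 lie on the plus strand as annotated, and 9 on the minus strand, namely mt-Nd6 and 8 tRNAs. They were compared on a library scale and on a scale set within the mitochondrial total, between cKO MED1 and WT cells.

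The cKO MED1 group held 4 libraries and the WT group, whose genotype is labelled wildtype, held 3. Both came from splenic B cells that had been purified and then cultured for 4 days with lipopolysaccharide (LPS, 1 µg/mL), which activates B cells, and interleukin 4 (IL4, 20 ng/mL), a cytokine that directs class switching. MED1 belongs to Mediator, the complex that carries signals from enhancers to RNA polymerase II, and the title of the series places the study's question at the immunoglobulin heavy chain locus. The driver of the deletion, the strain and age of the mice, and whether each library came from its own mouse are not stated in the sources used here. The p-values therefore describe spread between libraries, which may be technical.

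Mitochondrial DNA is a small circle transcribed from both strands by its own RNA polymerase, POLRMT, with the factors TFAM and TFB2M, all encoded in the nucleus and themselves made by way of RNA polymerase II. The long transcripts of each strand are cut where tRNAs punctuate them, which releases the rRNAs of the mitochondrial ribosome, the mRNAs of respiratory complexes I, III, IV and V, and the tRNAs. The plus strand carries most of the genes, and the products of the minus strand are mt-Nd6 and a minority of the tRNAs, spread among long antisense stretches.

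The 2 genes called within the mitochondrial total were minus-strand tRNAs, the glutamine tRNA mt-Tq and the glutamate tRNA mt-Te. That count, of 29 tested, is near the 6.28% of all genes tested that rose on this scale. The call was lost in 11 of 22 alternative fits for mt-Tq and in 13 of 21 for mt-Te. The plus-strand tRNAs beside mt-Tq, for isoleucine (mt-Ti) and methionine (mt-Tm), show how closely genes of opposite strands are packed. Sequences are the GENCODE transcripts of GRCm38, 5′ to 3′ on the coding strand, with the anticodon in capitals, and the ends of mt-Ti and mt-Tq overlap in the coordinates.
mt-Ti (chrM:3706-3774, plus strand): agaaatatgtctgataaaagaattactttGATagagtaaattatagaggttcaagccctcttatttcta
mt-Tq (chrM:3772-3842, minus strand): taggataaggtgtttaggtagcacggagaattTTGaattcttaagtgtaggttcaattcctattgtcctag
mt-Tm (chrM:3845-3913, plus strand): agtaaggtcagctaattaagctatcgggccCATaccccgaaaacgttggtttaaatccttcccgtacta
mt-Te (chrM:14071-14139, minus strand): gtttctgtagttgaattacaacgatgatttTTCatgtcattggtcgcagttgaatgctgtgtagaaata

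A stretch of nuclear chromosome 1, GRCm38 chr1:24611535-24616197, holds 7 pseudogenes that copy chrM:6390-11042 almost letter for letter. These windows show the only 2 substitutions that an alignment found between the aligned parts of the 7 pairs, in capitals, with positions counted from the first base of the mitochondrial gene. They were A1066T for mt-Co1 and its copy Gm29216, and T3C for mt-Nd3 and its copy Gm28438.
mt-Co1 (chrM:6390-6413, plus strand): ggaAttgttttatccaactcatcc
Gm29216 (chr1:24616165-24616188, minus strand): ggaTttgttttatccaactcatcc
mt-Nd3 (chrM:9459-9481, plus strand): atTaacctgtacactgttatctt
Gm28438 (chr1:24613097-24613119, minus strand): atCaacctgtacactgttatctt

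The libraries held 31937372 to 49603193 recovered reads in cKO MED1 and 54736580 to 61149274 in WT. Med1 had 2585, 2172, 2249 and 2436 normalised reads in cKO MED1 libraries against 4755, 4173 and 4210.1 in WT libraries and fell without overlap (log2 fold change -0.89 with an SE of 0.09, limma adjusted p = 0.000174). cKO MED1 libraries were not alike: cKO MED1 replicate 1 held 9.07% of its reads on cytosolic rRNA genes, against 1.01% to 1.41% in cKO MED1 replicates 2 to 4 and 1.34% to 1.83% in WT. Y-linked genes and Xist marked 1 of 4 cKO MED1 libraries (replicate 3) and 3 of 3 WT libraries as male. A fit with sex as a covariate therefore takes its genotype difference from cKO MED1 replicate 3 alone against WT. Of the B cell markers, Cd79a stood at 117 to 175 CPM (reads scaled to a common library total) in cKO MED1 and 306 to 349 CPM in WT, and Ms4a1 at 461 to 661 CPM in cKO MED1 and 967 to 1141 CPM in WT. Cd79b, Pax5 and Cd22 were likewise read in every library and lower in each cKO MED1 library than in any WT library. Summed markers of T cells reached at most 2.38 CPM, of NK cells 0.814 CPM, of neutrophils 0.47 CPM and of platelets 3.01 CPM, and each of these 4 maxima was in cKO MED1 replicate 4; those of macrophages reached 15.8 CPM in WT replicate 3, of erythroid cells 9.78 CPM in cKO MED1 replicate 2 and of stroma and endothelium 35.7 CPM in WT replicate 2. The neutrophil sums (0.147 to 0.470 CPM in cKO MED1, 0.0164 to 0.0913 CPM in WT) did not overlap between groups. Nor did those of platelets (1.92 to 3.01 and 0.736 to 1.10 CPM) or of stroma and endothelium (19.1 to 24.8 and 32.7 to 35.7 CPM). Those of T cells, NK cells, macrophages and erythroid cells overlapped. Among the defining markers Cd3e was at 0 in cKO MED1 replicate 1, and S100a9 was at 0 in cKO MED1 replicate 2 and all 3 WT libraries. The predicted gene Gm10800 held 0.989%, 0.957%, 2.99% and 5.91% of all reads in cKO MED1 libraries and 0.212%, 0.899% and 0.933% in WT libraries, without overlap and with cKO MED1 replicates 3 and 4 highest. The counts with sex as a covariate and without single libraries stand beside the results, and the part of the markers and of Gm10800 in them was not tested.

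Mitochondrial transcripts took a large share of every library. They held 24.4%, 30.7%, 37.2% and 40.2% of all reads in cKO MED1 replicates 1 to 4, against 20.1%, 25.6% and 22.4% in WT replicates 1 to 3. The mean was 33.1% ± 7.03 (SD, n = 4) in cKO MED1 and 22.7% ± 2.76 (SD, n = 3) in WT, a difference of 10.4 percentage points. The groups overlapped, since cKO MED1 replicate 1 lay below WT replicate 2, and without cKO MED1 replicates 3 and 4 the difference was 4.80 points. Cytosolic rRNA genes held 9.07% of the reads of cKO MED1 replicate 1 and 1.34% of those of WT replicate 2. Such reads count in the total and so lower the mitochondrial share, and the overlap depends on counting them. In bulk RNA a larger share on mitochondrial genes cannot be told apart from less nuclear-encoded RNA per cell, nor fewer cells of a type from less RNA per cell. Reads on 1613 olfactory and vomeronasal receptor genes, which B cells are not known to use, stood at 27.6, 36.03, 58.3 and 92.4 CPM in cKO MED1 and 15.4, 29.02 and 24.4 CPM in WT. They followed the same order as the mitochondrial share across all libraries of both groups, and their part in it was not tested.

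**Figure D1:**
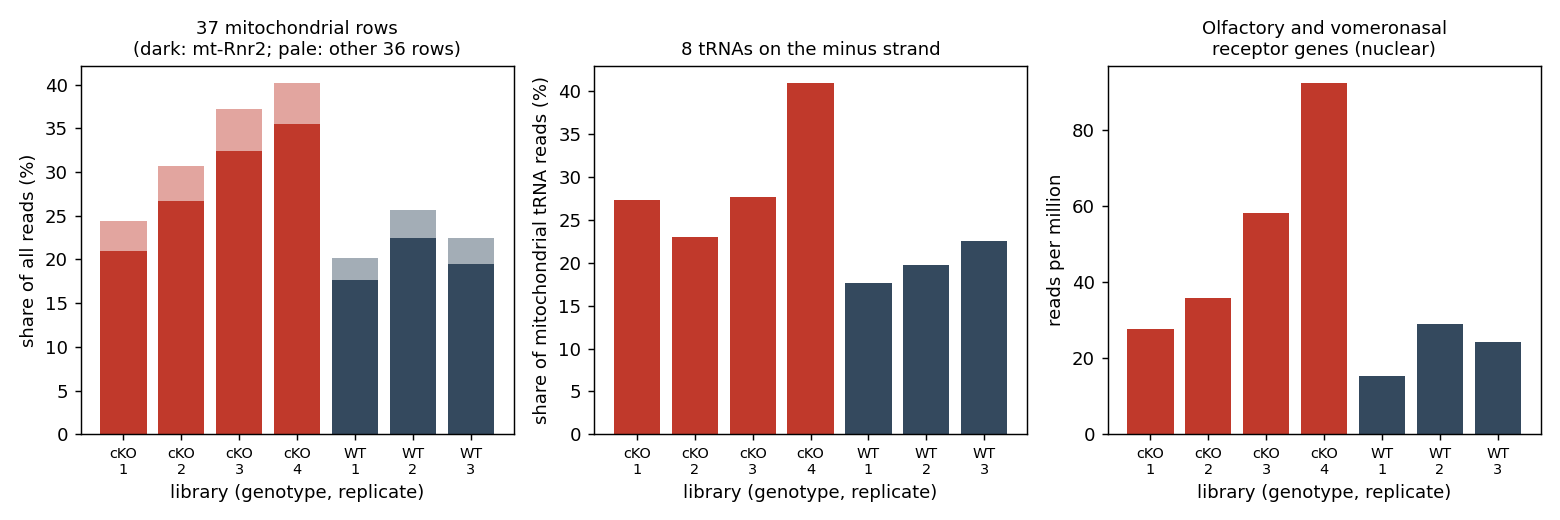
Share of all reads on the 37 mitochondrial genes (left, %), share of mitochondrial tRNA reads on the 8 minus-strand tRNAs (middle, %) and reads on nuclear receptor genes (right, CPM), with 1 bar for each cKO MED1 and each WT library. The mitochondrial share overlaps between the groups, whereas the minus-strand share of tRNA reads is 23.0% or more in every cKO MED1 library and 22.6% or less in every WT library. The minus-strand share includes mt-Tq, and without mt-Tq it overlaps between the groups. Strand is that of the annotated gene, and whether counting was stranded is not stated.

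Inside the mitochondrial total the classes kept similar shares. The rRNAs made up 94.996% to 95.7% of mitochondrial reads in cKO MED1 and 94.9% to 95.3% in WT, the protein-coding transcripts 4.33% to 4.99% in cKO MED1 and 4.64% to 5.05% in WT, and the tRNAs 0.0126% to 0.0151% in cKO MED1 and 0.0132% to 0.0153% in WT. The ranges overlapped for all 3 classes. The libraries were made from total RNA after depletion of ribosomal RNA, and the sources used here do not state whether the depletion reached the mitochondrial rRNAs. The read length was 150 bp, longer than any of the tRNAs, which measure 59 to 75 bases. Whether tRNA reads came from cut tRNAs or from longer transcripts was not tested.

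On the library scale the mitochondrial genes stood above WT as a group. Of 37 genes, 29 passed the filter on low counts and 12 of these rose in cKO MED1 (limma adjusted p under 0.05), where 13.4% of all 18062 genes tested rose. Of the 29, 0 fell by limma and 0 were lower at an unadjusted p under 0.05, where 14.6% of all genes tested fell. The quasi-likelihood test of edgeR called 15 of the 29 higher and 0 lower (14.8% of all genes tested higher, 14.8% lower), and DESeq2 called 19 higher and 0 lower (17.8% higher, 16.1% lower). The log2 fold changes of the 29 ran from 0.28 to 1.64 with a median of 0.74, beside a median of 0.04 over all genes tested. In 9 of the 29 every cKO MED1 library lay above every WT library, while 19.3% of all genes tested stood so and groups did not overlap in 39.1% in either direction. These genes are read from 1 circle in the same libraries and are not independent of each other. Scaling to total reads moved the median of all genes to -0.21 and that of the 29 to 0.50, with 9 called. All 29 log2 fold changes stayed above 0 under each library scaling tried, while without cKO MED1 replicates 3 and 4 the median was 0.38 and 5 of 30 were below 0. The 12 became 1 without cKO MED1 replicates 3 and 4 (mt-Tq), 1 without WT replicate 1 (mt-Tq) and 1 with sex as a covariate (mt-Nd4l), and 22 without cKO MED1 replicate 1. It was 4 without WT replicate 3, 5 without cKO MED1 replicate 3 and 6 without cKO MED1 replicate 4. With sex as a covariate the median log2 fold change of the 29 was 1.08 and 0 were below 0. That fit rests on 1 cKO MED1 library and called fewer genes over the whole table too, and the part of sex in the rise was not tested.

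The 2 rRNAs were the most abundant members. The RNA of the large mitochondrial ribosomal subunit, mt-Rnr2 (chrM:1094-2675), alone held 20.999%, 26.7%, 32.4% and 35.5% of all reads in cKO MED1 libraries and 17.7%, 22.5% and 19.5% in WT libraries. Its log2 fold change of 0.76 had an SE of 1.08 and did not pass (limma adjusted p = 0.611), and in a fit without the intensity trend the SE was 0.28. The RNA of the small subunit, mt-Rnr1 (chrM:70-1024), had 1009979, 1241006, 1599541 and 1716647 normalised reads in cKO MED1 libraries and 619074, 852621 and 810436 in WT libraries. Every cKO MED1 library exceeded every WT library, with a log2 fold change of 0.85 that limma did not call (SE 0.38, adjusted p = 0.110). Without the intensity trend limma called mt-Rnr1 (adjusted p = 0.0496) and not mt-Rnr2 (0.0946), in a fit that called 2 of the 29 (7.31% of all genes tested higher), and edgeR's quasi-likelihood test called both (adjusted p = 0.0167 and 0.0458). The ratio of mt-Rnr2 to mt-Rnr1 reads was 9.56, 10.4, 11.1 and 12.1 in cKO MED1 and 12.01, 11.9 and 10.5 in WT, so the groups overlapped.

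Among the 13 protein-coding transcripts, 8 rose on the library scale, and all of the complex I transcripts except mt-Nd1 and mt-Nd3 were among them. mt-Nd5, which encodes a proton-pumping subunit of complex I, had 33602, 46807, 58949 and 46644 normalised reads in cKO MED1 libraries and 22835, 30333 and 24915 in WT libraries. It did not overlap between groups (log2 fold change 0.82, SE 0.18, limma adjusted p = 0.01001). mt-Nd4 averaged 32679 ± 7308 (SD, n = 4) in cKO MED1 and 20193 ± 3185 (SD, n = 3) in WT, and the transcript mt-Nd4l that overlaps its start had the like change (log2 fold changes 0.68 and 0.67, limma adjusted p = 0.0177 and 0.0173). Both are complex I subunits carried on 1 shared mRNA. mt-Nd2 rose by 0.62 (limma adjusted p = 0.0336) with 1 overlapping library pair, cKO MED1 replicate 1 at 25263 below WT replicate 2 at 27983.

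mt-Nd6, the only mRNA of the minus strand and a membrane subunit of complex I, had the largest fold change of the 13. It stood at 1757, 1865, 3930 and 5251 normalised reads in cKO MED1 libraries and 1216, 1631 and 1358 in WT libraries. Every cKO MED1 library was above every WT library, and cKO MED1 replicates 3 and 4 were far above replicates 1 and 2 (log2 fold change 1.04, SE 0.32, limma adjusted p = 0.0346). Its 3′ end overlaps that of mt-Nd5 on the other strand, and the sources used here do not say if counting was stranded, so in the overlap the reads of one cannot be told apart from those of the other.

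The other complexes gave mixed calls at like sizes. mt-Cytb, the complex III subunit cytochrome b, averaged 69952 ± 17764 normalised reads in cKO MED1 and 45063 ± 8238 in WT (SD, n = 4 and 3; log2 fold change 0.61, limma adjusted p = 0.0446). Of the complex IV subunits, mt-Co2 rose by 0.76 (limma adjusted p = 0.0348), while mt-Co1 (0.75, adjusted p = 0.0920) and mt-Co3 (0.60, adjusted p = 0.0656) did not pass by limma. Of the ATP synthase subunits, mt-Atp6 rose by 0.84 (limma adjusted p = 0.0411), and mt-Atp8, whose reading frame overlaps it, had 0.62 (SE 0.40, adjusted p = 0.252). The complex I transcripts mt-Nd1 (0.51, limma adjusted p = 0.113) and mt-Nd3 (0.47, adjusted p = 0.0868) did not pass. A miss of the threshold does not show that these transcripts differ from the 8 that passed.

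**Figure D2:**
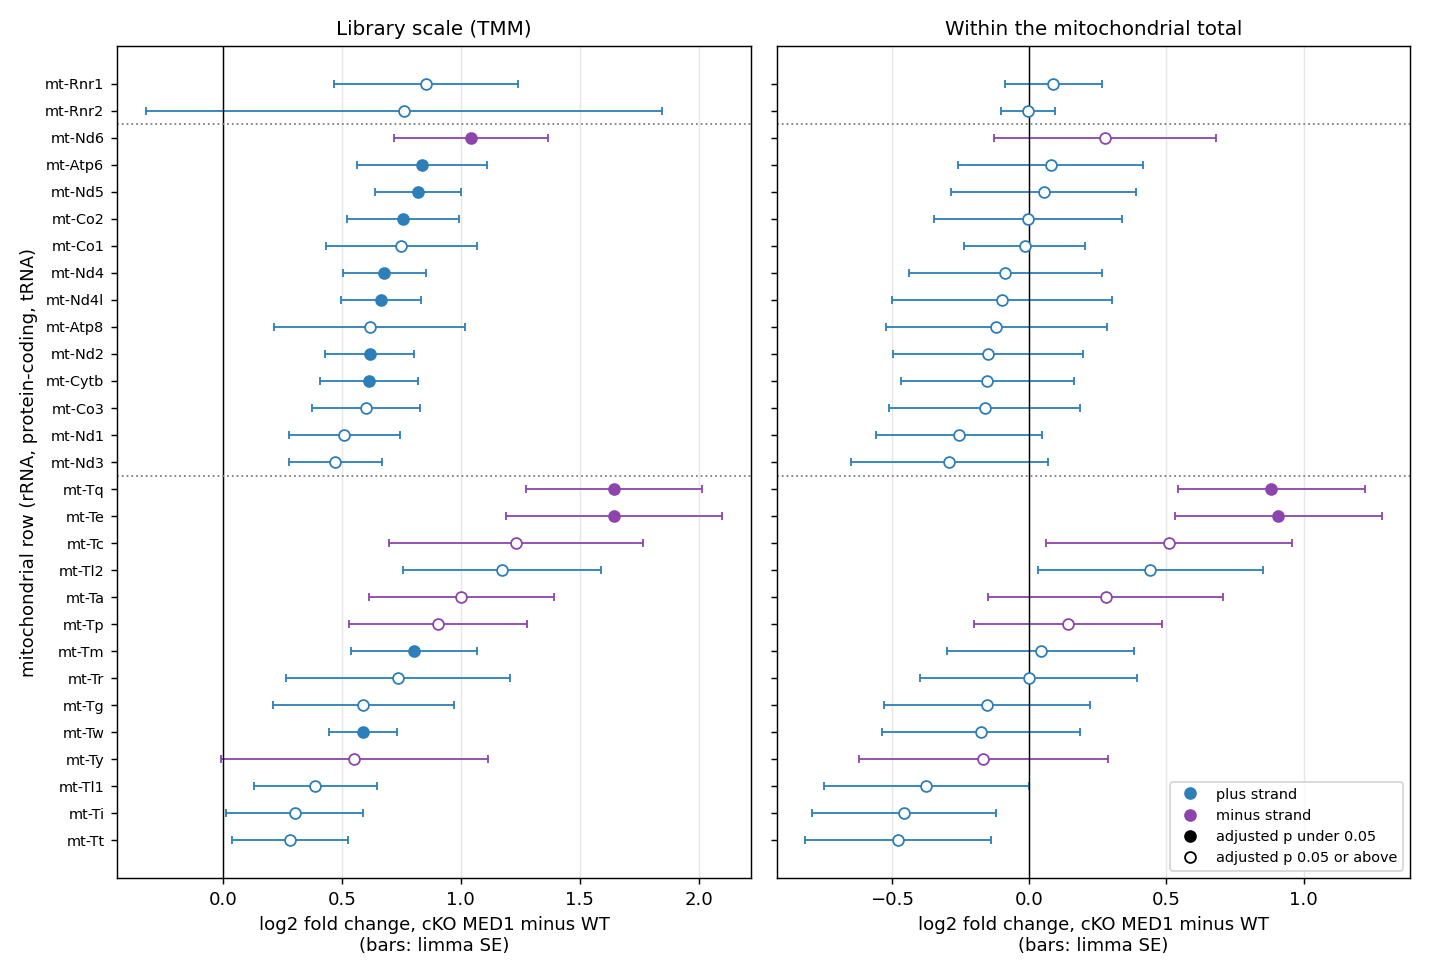
Log2 fold changes (cKO MED1 minus WT, with limma SE) of the 29 tested mitochondrial genes on the library scale (left) and within the mitochondrial total (right), ordered by class and by size on the library scale. All points lie right of 0 on the left, and on the right only the minus-strand tRNAs mt-Tq and mt-Te are filled, which marks an adjusted p under 0.05.

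The genes of 4 of these mRNAs held far fewer reads than their nuclear copies. mt-Co2, mt-Atp6, mt-Co3 and mt-Nd3 held 76 to 429 recovered reads per library, whereas the chromosome 1 copies that match almost their whole length held 6331 to 253858. In these 4 the mitochondrial gene received at most 3.20% of the reads of the pair. Less alike copies on chromosome 2 held reads too, 3587 to 6538 per library on Gm13341 (95.9% identity to mt-Co2) and 4516 to 9319 on Gm13340 (97.6% identity to mt-Co1). In mt-Nd4l and mt-Nd4 the deposited values lean the other way, with 99.45% or more of the reads on the mitochondrial gene in every library, although their copies match without a substitution over 294 and 876 bases. mt-Co1, of which 31.3% is covered by its copy, kept 68.3% to 69.2%. The sources used here do not say how reads that match both places were assigned, and the reads of a pair cannot be told apart.

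With the reads of each chromosome 1 copy added to its mitochondrial gene the fold changes stayed close. mt-Atp6 with Gm10925 then had 116481, 151981, 198958 and 182522 normalised reads in cKO MED1 libraries and 72947, 113727 and 83592 in WT libraries. The groups did not overlap (log2 fold change 0.85, SE 0.23, limma adjusted p = 0.0213). mt-Co2 with Gm28661 gave 0.78 (limma adjusted p = 0.0349), mt-Co3 with Gm28437 gave 0.63 (0.118), mt-Co1 with Gm29216 gave 0.75 (0.115) and mt-Nd3 with Gm28438 gave 0.31 (0.244). The number of mitochondrial genes that rose on the library scale was again 12. The copies together held 1.18%, 1.43%, 1.91% and 1.75% of all reads in cKO MED1 and 0.964%, 1.31% and 1.04% in WT, which is 4.36% to 5.12% of the mitochondrial reads in cKO MED1 and 4.62% to 5.11% in WT.

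**Figure D3:**
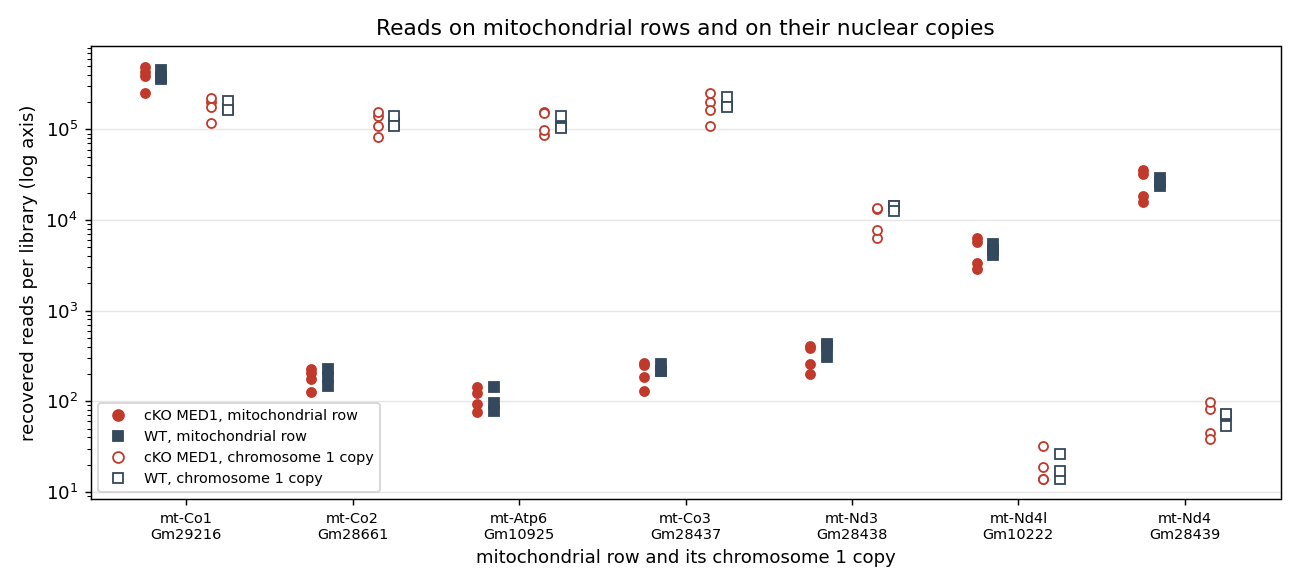
Recovered reads per library (log axis) on 7 mitochondrial mRNA genes (filled) and on their chromosome 1 copies (open), cKO MED1 as circles and WT as squares. In mt-Co2, mt-Atp6, mt-Co3 and mt-Nd3 the copy holds the reads, and in mt-Nd4l and mt-Nd4 the mitochondrial gene does, in every library.

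Levels per length, with the copies added, ordered the mRNAs in the same broad way in both groups. On the mitochondrial scale, in which each library is set to the same total over the 37 genes, mt-Co1 was highest at 368868 ± 15991 reads per kb (SD, n = 4) in cKO MED1 and 372296 ± 15171 (SD, n = 3) in WT. mt-Co3 followed with 228772 ± 27928 in cKO MED1 and 250179.8 ± 12818 in WT, then mt-Atp6 and mt-Co2, which did not differ beyond their spread. mt-Nd6 was far lower at 4357 ± 1063 in cKO MED1 and 3514 ± 61.5 in WT. Between them lay mt-Nd1, at 71724 ± 6761 in cKO MED1 and 85443 ± 5900.4 in WT, then mt-Cytb, mt-Nd3 and mt-Nd2. In WT mt-Nd3 (38778 to 44694) lay above mt-Nd2 (27204 to 30097), while in cKO MED1 they overlapped (23453 to 33852 and 18359 to 30986). There mt-Nd2 also overlapped mt-Nd4 and mt-Nd5. Next came mt-Nd4 and mt-Nd5, which did not differ beyond their spread, and mt-Nd4l. In WT mt-Nd4l (14808 to 16917) lay below every value of mt-Nd4 (18077 to 19926) and mt-Nd5 (18039 to 19123), and in cKO MED1 the 3 overlapped. mt-Atp8, which lies in the span of the copies and is matched by no copy of its own, was lowest at 111 ± 26.6 in cKO MED1 and 119 ± 13.8 in WT. Without the copies mt-Co3 would stand at 263 reads per kb in cKO MED1 and 294 in WT, below mt-Nd6.

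Scaled within the mitochondrial total, few members passed. Of the 29 tested, 2 rose, the glutamine tRNA mt-Tq and the glutamate tRNA mt-Te, where 6.28% of all genes tested rose on this scale, and 0 fell by limma, or were lower at an unadjusted p under 0.05, where 33.8% of all genes fell. By edgeR 2 were higher and 0 lower (6.02% of all genes tested higher, 26.3% lower), by DESeq2 1 higher and 0 lower (4.66% and 36.7%), and by limma without the intensity trend 0 were higher (8.32%), with 2 at an unadjusted p under 0.05. The median log2 fold change of the 29 was -0.02, against -0.72 over all genes tested, and the values ran from -0.48 to 0.91. Dividing by the mitochondrial total moves all other genes down where that total is larger. The median and the shares over all genes on this scale follow in part from that. On this scale 4 of the 29 did not overlap between groups, where 40.7% of all genes tested did not. In 2 of them cKO MED1 was the higher group, as in 5.41% of all genes, and in 2 the lower, as in 35.3%. The self-normalised fit leaves the rRNAs near 0 by construction, at 0.09 for mt-Rnr1 and -0.01 for mt-Rnr2, since they make up most of the total.

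The protein-coding transcripts stayed close together on the mitochondrial scale. Their log2 fold changes ran from -0.29 (mt-Nd3) to 0.28 (mt-Nd6), with adjusted p from limma of 0.463 or above for each. mt-Co1 had 392708, 367373, 411918 and 391037 mitochondria-scaled reads in cKO MED1 libraries and 400424, 408912 and 376345 in WT libraries, which overlap closely (-0.02, SE 0.22). mt-Nd4 had 29069, 30118, 26616 and 16021 in cKO MED1 libraries and 27383, 26609 and 24853 in WT libraries. cKO MED1 replicate 4 was thus the lowest of all 7, and it was the lowest in mt-Nd4l, mt-Nd5, mt-Nd2, mt-Cytb and mt-Nd1 as well. mt-Nd6 went the opposite way in that library, with 2031, 1627, 2490 and 2897 in cKO MED1 libraries and 1857, 1821 and 1794 in WT libraries, so that cKO MED1 replicate 2 lay below WT and the other 3 above it. mt-Co3 was the only mRNA whose groups did not overlap, at 188 to 223 in cKO MED1 and 227 to 234 in WT, but it did not pass (-0.16, limma adjusted p = 0.692) and with its copy added the groups overlapped. With its own copy added mt-Nd3 stood at 10445 ± 1673 in cKO MED1 and 14202 ± 1171 in WT (SD, n = 4 and 3), without overlap and without passing (-0.45, limma adjusted p = 0.294).

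The tRNAs were thinly read, with 1046 to 2179 reads over all 22 in cKO MED1 libraries and 1617 to 2016 in WT libraries. Of the 22, 8 did not pass the filter (mt-Tf, mt-Tv, mt-Tn, mt-Ts1, mt-Td, mt-Tk, mt-Th and mt-Ts2), with at most 20 reads in any library. No read was listed for mt-Td (aspartate) or mt-Tk (lysine) in any of the 7 libraries, which allows up to 3 reads per library. Both lie within the span of the chromosome 1 copies on the mitochondrial genome. The other 14 were tested, and on the library scale 4 rose, the glutamine, glutamate, methionine and tryptophan tRNAs, where 13.4% of all genes tested rose.

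mt-Tq, the glutamine tRNA whose sequence is given above, had 178, 203, 321 and 661 normalised reads in cKO MED1 libraries and 70.2, 109 and 109 in WT libraries. Every cKO MED1 library lay above every WT library, and replicate 4 stood highest (log2 fold change 1.64, SE 0.37, limma adjusted p = 0.0109). Within the mitochondrial total it had 205, 177, 204 and 365 reads in cKO MED1 libraries and 107, 121 and 143 in WT libraries. It still rose there, without overlap (0.88, SE 0.34, limma adjusted p = 0.0335). Leaving out cKO MED1 replicate 4 gave 0.66 (limma adjusted p = 0.125), and without cKO MED1 replicate 3 or any 1 WT library the adjusted p lay between 0.0713 and 0.233 at 0.78 to 0.99. The call was also lost with sex as a covariate (0.72, limma adjusted p = 0.241), without cKO MED1 replicates 3 and 4 (0.63, adjusted p = 0.171), with no filter (adjusted p = 0.0697) and with no intensity trend (adjusted p = 0.0636).

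mt-Te, the glutamate tRNA next to mt-Nd6 on the same strand, had 32.5, 33.1, 60.6 and 121 normalised reads in cKO MED1 libraries and 10.3, 23.7 and 17.6 in WT libraries (log2 fold change 1.64, SE 0.45, limma adjusted p = 0.0237). Within the mitochondrial total it had 37.6, 28.9, 38.4 and 66.7 reads in cKO MED1 libraries and 15.8, 26.4 and 23.2 in WT libraries. The groups did not overlap on either scale, but cKO MED1 replicate 2 and WT replicate 2 were close (0.91, SE 0.38, limma adjusted p = 0.0443). These values rest on 24 to 66 recovered reads per cKO MED1 library and 15 to 29 per WT library. The call on the mitochondrial scale was lost without cKO MED1 replicate 3 or 4 or any 1 WT library (limma adjusted p between 0.0611 and 0.261 at 0.68 to 1.05). It was lost as well with sex as a covariate (0.82, limma adjusted p = 0.227), without cKO MED1 replicates 3 and 4 (0.60, adjusted p = 0.323), with no filter (adjusted p = 0.137), with no intensity trend (adjusted p = 0.0577) and by DESeq2 (adjusted p = 0.0519).

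On the mitochondrial scale 0 plus-strand tRNAs passed by limma, with 0 at an unadjusted p under 0.05. mt-Tm, the methionine tRNA beside mt-Tq, rose on the library scale (126, 224, 275 and 295 normalised reads in cKO MED1 against 127, 156 and 98.2 in WT, log2 fold change 0.80, limma adjusted p = 0.0436), and within the mitochondrial total it had 0.04 (SE 0.34). mt-Tw, the tryptophan tRNA, rose on the library scale without overlap (0.59, SE 0.14, limma adjusted p = 0.0147) and had -0.17 within the total. mt-Ti, the isoleucine tRNA on the other side of mt-Tq, had 75.2, 81.6, 97.6 and 79.8 mitochondria-scaled reads in cKO MED1 libraries and 110.4, 128 and 106 in WT libraries. All 4 cKO MED1 values were below all 3 WT values, without passing (-0.46, SE 0.34, limma adjusted p = 0.232). The lowest was mt-Tt for threonine (-0.48, SE 0.34, limma adjusted p = 0.212), and mt-Tl1, a leucine tRNA that follows mt-Rnr2, had -0.38. The other leucine tRNA, mt-Tl2, had 0.44, and the minus-strand cysteine tRNA mt-Tc had 0.51, neither of which passed. The 5 other tested tRNAs (mt-Ta, mt-Ty, mt-Tg, mt-Tr and mt-Tp) lay between -0.17 and 0.28 on the mitochondrial scale and between 0.55 and 1.00 on the library scale, and none passed on either.

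Seen by the strand of the annotated gene, the minus-strand genes had the higher median fold change, a difference that was not tested. The sources used here do not say if counting was stranded. Reads counted on minus-strand genes therefore cannot be told apart from those of plus-strand transcripts across the same positions. On the mitochondrial scale the log2 fold changes of the 7 tested minus-strand genes had a median of 0.28 with 2 called. Those of the 22 tested plus-strand genes had a median of -0.11, with 0 called by limma, edgeR or DESeq2 and 0 at an unadjusted limma p under 0.05. The 8 minus-strand tRNAs held 27.3%, 23.0%, 27.7% and 40.9% of all tRNA reads in cKO MED1 libraries and 17.6%, 19.8% and 22.6% in WT libraries. The groups did not overlap, although cKO MED1 replicate 2 and WT replicate 3 differed by little. Minus-strand tRNA reads numbered 286, 454, 604 and 790 in cKO MED1 libraries and 331, 399 and 365 in WT libraries. Of these, mt-Tq held 131, 208, 244 and 361 in cKO MED1 and 102, 133 and 136 in WT. The separation is therefore not independent of the mt-Tq result, and with mt-Tq left out of both counts the shares overlap. The share of the 9 minus-strand genes in the mitochondrial total was 0.0191%, 0.0155%, 0.0231% and 0.0285% in cKO MED1 and 0.0170%, 0.0169% and 0.0168% in WT. Here cKO MED1 replicate 2 lay below all WT libraries, and without cKO MED1 replicates 3 and 4 the difference in means was 0.000434 percentage points in place of 0.00468.

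Ratios of nearby genes on opposite strands, which need no library scaling, separated the groups in 2 of 4 cases. mt-Tq reads over the sum of mt-Ti and mt-Tm reads were 0.929, 0.638, 0.748 and 1.504 in cKO MED1 libraries and 0.352, 0.402 and 0.607 in WT libraries, without overlap. mt-Te over mt-Tt was 0.407, 0.209, 0.346 and 0.750 in cKO MED1 and 0.0843, 0.206 and 0.172 in WT, with cKO MED1 replicate 2 only just above WT replicate 2. mt-Te and mt-Tt are not direct neighbours, since mt-Cytb lies between them. As the tested gene with the lowest log2 fold change on the mitochondrial scale (-0.48), mt-Tt widens this ratio. mt-Tp, the minus-strand proline tRNA, over its neighbour mt-Tt was 1.66, 0.969, 1.69 and 3.18 in cKO MED1 and 0.871, 1.27 and 1.25 in WT, which overlapped. mt-Nd6 as a percent of mt-Cytb was 3.51%, 3.00%, 4.31% and 6.87% in cKO MED1 and 3.18%, 3.01% and 3.17% in WT, which overlapped too. The numerators and denominators of these ratios were chosen after their values had been seen, so they are descriptions. The unknown strand setting of the counting limits these ratios as it does the strand shares.

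**Figure D4:**
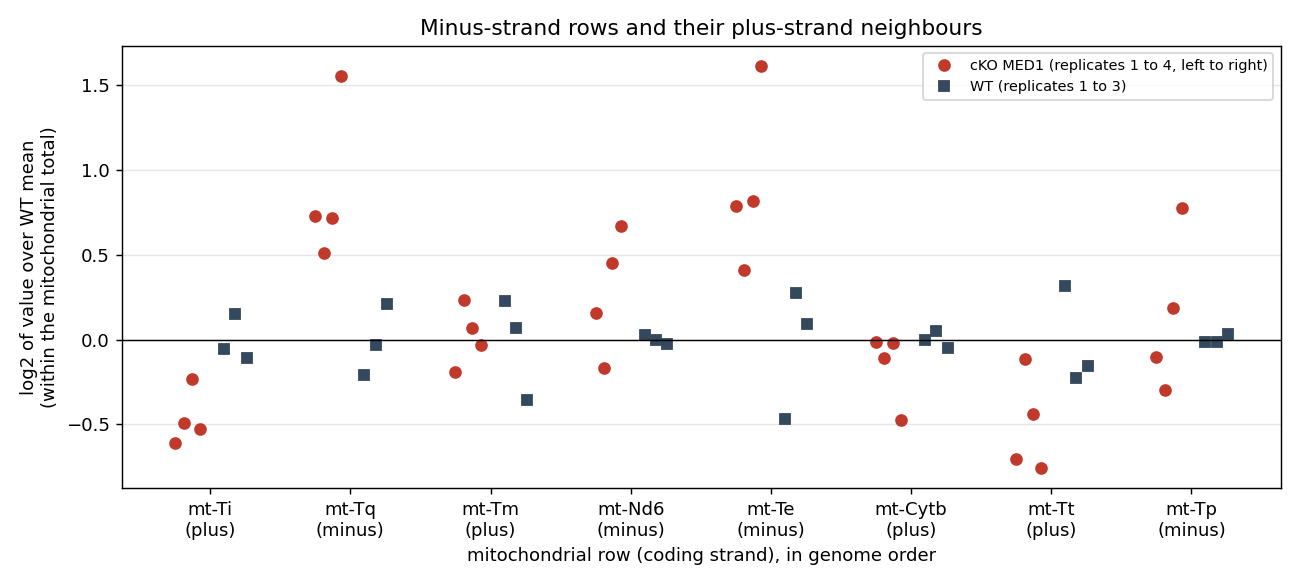
Log2 of each library's value over the WT mean, on the mitochondrial scale, for minus-strand genes and plus-strand neighbours in genome order, cKO MED1 as circles and WT as squares. mt-Tq and mt-Te are above every WT library in all 4 cKO MED1 libraries, mt-Ti is below in all 4, and cKO MED1 replicate 4 is the highest library in each of mt-Tq, mt-Nd6, mt-Te and mt-Tp.

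The receptor genes used as a background were also taken per length. They had 0.168, 0.320, 0.435 and 0.528 reads per kb of exon in cKO MED1 libraries and 0.169, 0.288 and 0.239 in WT libraries. The groups overlapped, since cKO MED1 replicate 1 lay just below WT replicate 1. With this rate subtracted from every gene, mt-Tq had 0.88 within the mitochondrial total (limma adjusted p = 0.0343), and mt-Te had 0.91 with an adjusted p of 0.0506. A background specific to mitochondrial DNA or to the antisense strand was not tested.

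Among the nuclear genes that make and handle mitochondrial RNA and DNA, more fell than rose, and most passed in neither direction. In lists of 61 tested genes of mitochondrial transcription, DNA replication, RNA processing, stability and modification, 23 fell and 2 rose on the library scale, where 14.6% of all genes tested fell and 13.4% rose, and the median log2 fold change was -0.17. Tfam, which packages mitochondrial DNA and starts its transcription, had 1878, 2067, 2091 and 1865 normalised reads in cKO MED1 libraries and 2531, 2374 and 2224 in WT libraries. It fell without overlap, by a small amount (-0.27, SE 0.09, limma adjusted p = 0.0414). Tfb2m, its partner at the promoter, had -0.29 without overlap and did not pass (limma adjusted p = 0.0700), and the polymerase gene Polrmt had -0.16 (SE 0.10, adjusted p = 0.239).

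The largest shares of falls were in the lists of genes that cut, protect and degrade mitochondrial RNA. Of 13 tested processing genes 10 fell, and of 8 tested stability and decay genes 5 fell, with 0 rising in either list by limma, edgeR or DESeq2 and 0 higher at an unadjusted limma p under 0.05. Lrpprc, which binds and stabilises mitochondrial mRNAs, had 2957, 2584, 2745 and 2524 normalised reads in cKO MED1 libraries and 4696, 3922 and 3840.4 in WT libraries (log2 fold change -0.62, SE 0.10, limma adjusted p = 0.00239). Its partner Slirp averaged 1183 ± 235 in cKO MED1 and 1039 ± 66.9 in WT (SD, n = 4 and 3). That difference was within the spread (0.17, limma adjusted p = 0.397). Pde12, an enzyme that removes poly(A) tails in mitochondria, fell by 0.64, and the RNA-binding proteins Fastkd1 and Fastkd2 fell by 0.47 and 0.49 as log2 fold changes (limma adjusted p = 0.00168, 0.00773 and 0.00905).

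Among RNA modification genes 4 of 19 fell and 1 rose, where 14.6% of all genes tested fell and 13.4% rose, so these counts and those for transcription and replication are near the shares over all genes. Nsun2, an RNA cytosine methyltransferase found in the nucleus and in mitochondria, averaged 4187 ± 335 normalised reads in cKO MED1 and 6739 ± 925 in WT (SD, n = 4 and 3; log2 fold change -0.68, limma adjusted p = 0.00239). Qtrt1, a subunit of the enzyme that places queuine at tRNA anticodons, fell by 0.63 (limma adjusted p = 0.00364). Of the genes for mitochondrial transcription 2 of 11 fell and 0 rose by limma, edgeR or DESeq2 (0 higher at an unadjusted limma p under 0.05), and of those for mitochondrial DNA replication 2 of 10 fell and 1 rose. The 2 that rose, Primpol (0.36, limma adjusted p = 0.0191) and Mettl15 (0.37, adjusted p = 0.0430), are named here because the count is small, after their values were seen. With sex as a covariate 0 of the 61 passed limma's threshold in either direction, with 14 lower and 2 higher at an unadjusted p under 0.05, where 119 of all 18062 genes fell. The count of 23 became 8 without WT replicate 1, 15 without cKO MED1 replicate 4 and 13 without cKO MED1 replicates 3 and 4.

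Few nuclear partners of the mitochondrial mRNAs in the respiratory complexes passed. Of 69 tested subunits of complexes I, III, IV and V, 10 fell and 1 rose, a share near the 14.6% of all genes for falls, with a median log2 fold change of -0.13. For complex I 6 of 35 fell and 1 rose (Ndufv3, 0.32, named for the small count), for complex III 2 of 9 fell, for complex IV 0 of 10 passed by limma, edgeR or DESeq2 (0 at an unadjusted limma p under 0.05), and for complex V 2 of 15 fell. The mRNA of Ndufv1, which binds the NADH that enters complex I, averaged 1332 ± 143 in cKO MED1 and 2024 ± 167 in WT (SD, n = 4 and 3; log2 fold change -0.61, limma adjusted p = 0.00363). Uqcrc1 of complex III fell by 0.50, the ATP synthase subunits Atp5b and Atp5a1 by 0.53 and 0.47, and Ndufa5 and Ndufa9 of complex I by 0.50 and 0.39 on the log2 scale. Each of these passed by limma, with adjusted p between 0.00870 and 0.0254. The count of 10 became 2 without WT replicate 1, 5 without cKO MED1 replicate 4 and 4 without cKO MED1 replicates 3 and 4, and the count of 1 that rose became 11 without cKO MED1 replicate 1. With sex as a covariate 0 of the 69 passed in either direction by limma, with 11 higher and 3 lower at an unadjusted p under 0.05.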

How the data were processed

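The authors deposited 1 table of signal values, which are whole read counts divided by 1 size factor per library. All values (100%) were whole multiples of 1 step within 1e-06, so reads were recovered by division. The submitters' processing notes list STAR 2.4.0a, featureCounts, Subread 1.5.0-p3, R 3.4, DESeq2 and mm10/GRCm38, with no role or order. Strand and multi-mapping settings are not given in the sources used here.

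The planned fit runs on log values and not as a count test: reads of the 18062 genes passing edgeR 4.0.16's filterByExpr were TMM-scaled and log2(value + 1) was tested, cKO MED1 minus WT, by limma 3.58.1 in R 4.3.3, its prior variance following intensity, Benjamini-Hochberg adjusted over all genes. Adding 1 shrinks fold changes of low genes. The mitochondrial scale divides each library by its sum over the 37 genes. edgeR's quasi-likelihood test, DESeq2 1.42.0 and other scalings, filters and pseudocounts were alternatives, and 5 further ones (the copies added, on reads and on shares, the protein-coding total with copies, no intensity trend, background subtraction) were chosen after seeing the data. The fits were tested on simulated data. Copies were aligned with BLAST 2.17.0 (at least 95% identity over 100 bases) between GENCODE transcripts.

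All rRNAs and mRNAs are named. So are the tRNAs called on either scale with the 4 highest and 4 lowest on the mitochondrial scale, and up to 6 genes of the RNA genes and of the complex subunits by adjusted p, with Polrmt, Tfam, Tfb2m, Lrpprc and Slirp. Members and lists were chosen with earlier results of these data known. Depth was 31937372 to 61149274 reads per library, and limits from counts of 0 (3 reads) cover counting error only.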

Additional observations from a re-analysis of the deposited data

Results flagged for a closer look

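Among 87 results, the lowest or highest of the 4 cKO MED1 libraries stood far from the other 3 in 5, and chance sets apart about 1 in 20 groups of 4. mt-Tq, the glutamine tRNA, had 365 reads in cKO MED1 replicate 4 on the mitochondrial scale, against 177 to 205 in the other cKO MED1 libraries. mt-Tt, the threonine tRNA, had 79.9 normalised reads in cKO MED1 replicate 1 on the library scale, below the other cKO MED1 libraries at 159 to 175. mt-Tg, the glycine tRNA, had 23.5 mitochondria-scaled reads in that library, against 32.6 to 34.3. These values rest on 15 recovered reads in cKO MED1 replicate 1 and 34 to 39 in the other cKO MED1 libraries. cKO MED1 replicate 1 also held 9.07% of its reads on cytosolic rRNA genes, and 7.70% of its reads lay on Rn18s-rs5.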

How the results depend on the processing

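Of 1440 values of single genes under an alternative, 1258 kept direction and side of the threshold, 156 lost a call, 26 gained one and 0 reversed. Of 231 counts and shares, 70 moved. The 12 mitochondrial genes that rose on the library scale became 19 by DESeq2, 2 without the intensity trend, 1 with sex as a covariate, 1 without cKO MED1 replicates 3 and 4, 0 at an adjusted p under 0.01 and 1 to 22 with 1 library left out. The 2 on the mitochondrial scale became 1 by DESeq2, with the filter at 1 CPM in 3 libraries or with background subtracted, 0 with no filter, at 0.01, with sex, without cKO MED1 replicates 3 and 4 or with no trend, and 0 to 2 with 1 library left out. Same-numbered libraries deviated with correlations of 0.51, -0.23 and 0.16, and libraries of unlike number with -0.58 to 0.40. Deviations from a group mean cancel within the group, so these values cannot decide whether the numbers are a pairing. With the replicate block the counts were 8 on the library scale and 0 on the mitochondrial scale, the nuclear RNA and DNA genes 1 higher and 15 lower and the complex subunits 5 lower.

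For the nuclear RNA and DNA genes the 2 that rose became 5 at 1 CPM, 1 without cKO MED1 replicates 3 and 4 and 0 with no filter, at 0.01, with sex, with no trend, with total reads or with the authors' size factors (0 to 3 with 1 library left out). The 23 that fell became 13 at 1 CPM, 7 at 0.01, 0 with sex, 13 without cKO MED1 replicates 3 and 4, 10 with no trend and 8 to 23 with 1 library left out. For the complex subunits the 1 that rose became 2 at 1 CPM, 0 under each of the other 7 changes just listed for the RNA genes and 0 to 11 with 1 library left out. The 10 that fell became 20 with no filter or total reads, 5 at 1 CPM, 2 at 0.01, 0 with sex, 4 without cKO MED1 replicates 3 and 4, 3 with no trend and 2 to 12 with 1 library left out. Without the rRNAs in the total the difference in tRNA share was 0.00173 percentage points in place of -0.000537, and that in minus-strand share 0.117 in place of 0.00468. The median of all genes moved to -0.21 with total reads, -0.10 with the authors' factors and 0.35 with no filter. Unless the change itself removes genes or samples, the cause was not tested. Counts of 15 to 66 reads limit mt-Te.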
